A study of Mus musculus with 15 samples.

Results

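The genes described here write or remove DNA methylation, or form Polycomb repressive complex 2 (PRC2). They were Dnmt3a, Dnmt3b, Tet1, Tet2, Tet3, Ezh1, Ezh2, Eed, Suz12 and Jarid2. A probe set, the group of short probes that reads a transcript on the array, belonged to the set when its gene symbol in the platform annotation was exactly that of a member. This gave 10 of 18193 measured genes, read by 30 of 45037 probe sets. Expression was measured on 15 Affymetrix mouse arrays with RNA of acute myeloid leukemia cells from spleens. All leukemias carried the NRASG12V/Mll-AF9 genotype, an oncogenic NRAS together with the Mll-AF9 fusion gene, and grew in SCID/Beige mice, whose own B and T lymphocytes are deficient, after transfer through the tail vein. The hosts were followed for 20 days, to white blood cell counts above 100000 per microlitre. In the 5 RAS-OFF groups, doxycycline was injected into the peritoneum and given in drinking water from 0 h to shut off NRASG12V. They held 2 arrays each at 48, 60, 72, 84 and 96 h, 10 arrays in all. The RAS-ON group held 5 arrays of vehicle-treated leukemias at 0 h. No vehicle-treated leukemia of a later time was analysed here, so loss of RAS, exposure to doxycycline and time since treatment cannot be told apart. The labels name neither the promoter that drives NRASG12V nor the animal behind each array, so a p-value reflects only how far these samples spread, and that spread may be technical.

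DNA methyltransferases 3a and 3b, encoded by Dnmt3a and Dnmt3b, place new methyl groups on cytosines of CpG dinucleotides. The TET enzymes, encoded by Tet1, Tet2 and Tet3, oxidise these methyl groups and so start their removal. PRC2 methylates lysine 27 of histone H3, a mark of silenced genes: EZH2 or its relative EZH1 is the catalytic subunit, EED and SUZ12 are needed for activity, and JARID2 is an accessory subunit that helps to place the complex. DNMT3A and TET2 are among the genes most often mutated in human acute myeloid leukemia, and loss of PRC2 subunits alters the course of Mll-AF9 leukemia in mice. In the mouse genome (GRCm38.p6, RefSeq) the methyltransferase genes lie at chr12:3801559-3914443 (Dnmt3a) and chr2:153649411-153687730 (Dnmt3b). The TET genes lie at chr10:62804570-62887469 (Tet1), chr3:133463677-133545136 (Tet2) and chr6:83362373-83457208 (Tet3). The PRC2 genes lie at chr6:47530274-47595270 (Ezh2), chr11:101191115-101226463 (Ezh1), chr7:89954654-89980976 (Eed), chr11:79993106-80034123 (Suz12) and chr13:44730774-44921643 (Jarid2).

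Promoters of 3 members are shown: Ezh2, which changed with time, Suz12, a core partner in its complex, and Tet2, which had the largest fall. Eed, a core partner as well, is not shown. Each is 300 bases from RefSeq (GRCm38.p6), from 250 bases before to 50 after the annotated start, written 5′ to 3′ on the gene's strand. Capitals mark words of the binding site of E2F factors, which drive genes of DNA replication. All 10 members matched, with 13 promoters.
Ezh2 (chr6:47594981-47595280, minus strand): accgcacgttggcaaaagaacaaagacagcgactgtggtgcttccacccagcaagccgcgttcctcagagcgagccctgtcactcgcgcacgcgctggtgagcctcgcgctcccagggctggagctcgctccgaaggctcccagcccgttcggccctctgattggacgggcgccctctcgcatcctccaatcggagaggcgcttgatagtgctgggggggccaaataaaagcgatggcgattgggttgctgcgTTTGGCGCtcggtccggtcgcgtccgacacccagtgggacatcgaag
Suz12 (chr11:79992856-79993155, plus strand): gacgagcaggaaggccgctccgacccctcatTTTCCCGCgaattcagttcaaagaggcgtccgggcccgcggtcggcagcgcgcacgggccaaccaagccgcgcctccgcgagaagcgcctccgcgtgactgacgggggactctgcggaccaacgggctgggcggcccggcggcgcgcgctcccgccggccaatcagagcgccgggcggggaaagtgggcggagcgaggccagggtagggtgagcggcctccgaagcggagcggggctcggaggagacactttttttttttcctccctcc
Tet2 (chr3:133544341-133544640, minus strand): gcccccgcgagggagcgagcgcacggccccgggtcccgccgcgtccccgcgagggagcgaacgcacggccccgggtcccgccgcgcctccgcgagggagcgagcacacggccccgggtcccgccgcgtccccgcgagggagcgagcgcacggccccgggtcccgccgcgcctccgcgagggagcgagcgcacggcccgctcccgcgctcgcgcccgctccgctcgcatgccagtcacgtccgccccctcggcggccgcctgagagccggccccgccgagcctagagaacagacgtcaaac
Both strands were searched for TTTGGCGC, TTTCCCGC, TTTGCCGC and TTTCGCGC, and 2.26% of 32851 promoters held at least 1 of these words. The words CCGGAAGT (ETS factors), TGANTCA (AP-1), TGACGTCA (CRE) and CACGTG (E-box), which 3.89%, 7.81%, 1.79% and 7.15% of all promoters hold, were searched as well and are in none of these 3 windows. Among the members' promoters only those of Ezh2 and Suz12 held a word, so all with a word are shown. That of Eed, also a core partner of Ezh2, held none. The Ezh2 and Tet2 starts used lie inside the gene spans given above, not at their edges. Counting the start base as 1, the Ezh2 word began at position 4. The Suz12 word began at offset -219, before the start. Neither word overlapped a CCAAT word, of which the Ezh2 window held 3, the Suz12 window 1 and the Tet2 window 0, and which 37.4% of all promoters have. The Tet2 window held 57 CpG dinucleotides, more than 99.8% of all promoters, against a median of 7 over all. Ezh2 had 31 CpGs (more than 89.4% of promoters) and Suz12 had 41 (more than 96.5%). Every E2F word searched holds a CpG, and the share of 2.26% over all promoters was not matched for CpG content. A match describes the sequence only, and methylation of these promoters was not measured here.

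The values are log2 intensities, on which a difference of 1 is a factor of 2 in signal. They compare arrays for the same probe set, not different probe sets with each other. The 5 RAS-ON arrays formed separate sets, arrays 1 to 3 and arrays 4 and 5. The SD of the log2 difference between arrays was 0.17 to 0.22 within arrays 1 to 3, 0.17 between arrays 4 and 5, and 0.24 to 0.30 across the sets. Where the call of a RAS-OFF minus RAS-ON change turned on the RAS-ON set used, the change is given against each set. As a sign of RNA degradation, the Gapdh controls at the 3-prime end exceeded those at the 5-prime end by 1.22 on RAS-OFF 96 h replicate 1 and by 0.10 to 0.36 on the others. Myeloid genes of the labelled tumour were bright in both states: the mean log2 intensity of 12 leukemia and myeloid progenitor genes ran from 10.47 to 11.13 on RAS-OFF arrays and from 11.58 to 11.73 on RAS-ON arrays. Genes of other spleen cells differed as well. The mean over 10 erythroid genes was 12.05 to 12.39 on RAS-OFF arrays and 10.60 to 10.90 on RAS-ON arrays. That over 10 red pulp macrophage genes was 10.19 to 10.60 on RAS-OFF arrays and 9.56 to 10.10 on RAS-ON arrays. Fewer cells of a type and less RNA per cell cannot be told apart in such bulk samples. The part of the cell mixture in the members' changes was not tested.

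In RAS-OFF leukemias, averaged over the times, the TET genes, Dnmt3b and Jarid2 were lower, and both genes for the catalytic subunit of PRC2 were higher. The calls of Tet3 and Ezh2 were the less stable ones, passing in 18 and 27 of 30 alternative settings. Of the 10 members, 5 fell (Tet2, Dnmt3b, Jarid2, Tet1 and Tet3), 2 rose (Ezh1 and Ezh2) and 3 did not pass the test (Suz12, Dnmt3a and Eed), each read by its brightest probe set. A gene was called at an adjusted p below 0.05 in limma, over all 18193 genes. Over all genes, 48.8% were called, 20.1% up and 28.7% down, so the members' 7 of 10 stands against a background in which nearly as many genes were called as were not. The members' median log2 change was -0.13, beside -0.04 over all genes. For Tet2, Dnmt3b, Jarid2 and Tet1 all 10 RAS-OFF arrays lay below all 5 RAS-ON arrays, a pattern that 12% of all genes showed. The share with all RAS-OFF arrays above was 9.36%, and in either direction 21.3% of genes had no overlap.

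**Figure D1:**
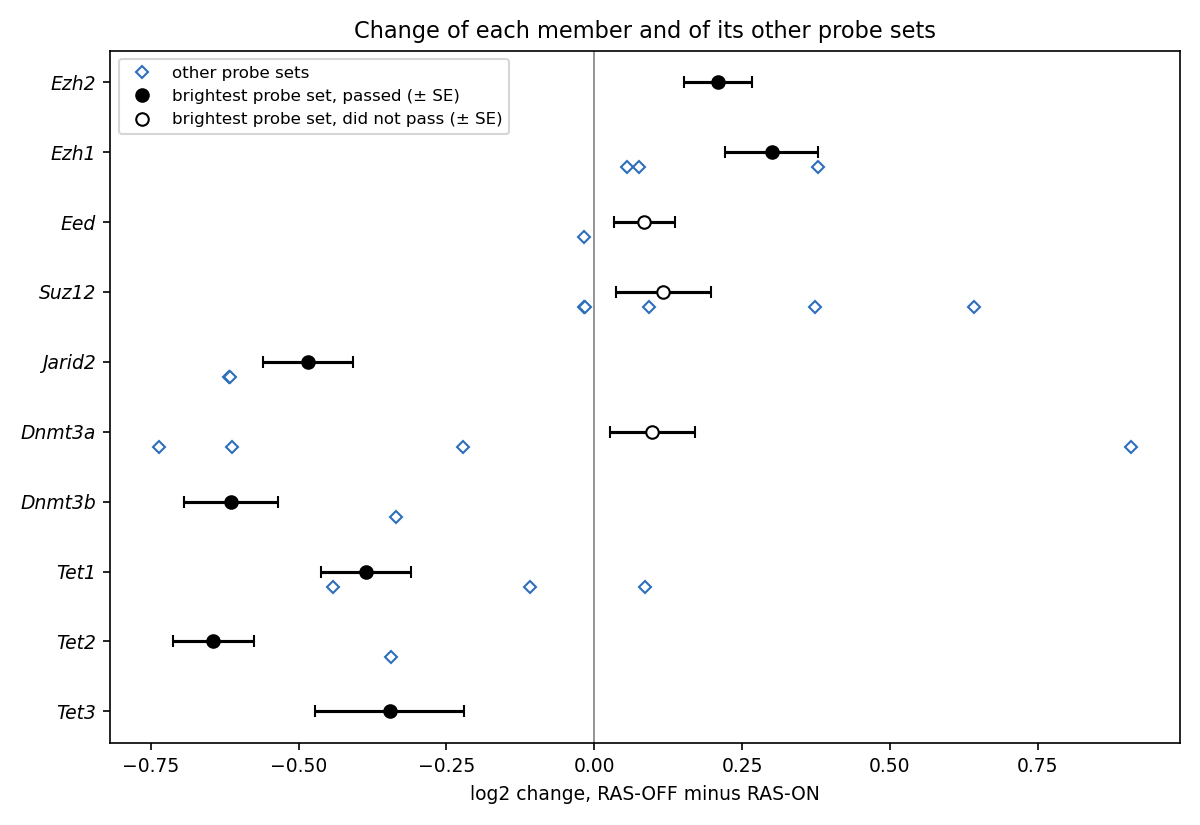
Log2 change between RAS-OFF and RAS-ON (x axis) for the 10 members (rows), with black circles for the brightest probe set of each gene (filled where the test was passed), bars of 1 SE from the limma fit, and blue diamonds for the other probe sets. Changes of the brightest sets run from -0.64 for Tet2 to 0.30 for Ezh1, and the Dnmt3a sets spread from -0.74 to 0.91.

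Ezh2, the main catalytic subunit of PRC2 in dividing cells, was the only member whose trend over the RAS-OFF times passed the test. Its log2 intensity on RAS-OFF arrays had a lowest value of 11.47, a median of 11.81 and a highest of 11.99. On the 5 RAS-ON arrays it was 11.60, 11.64, 11.59, 11.32 and 11.63. The groups overlapped, with 6 RAS-OFF arrays above every RAS-ON array and 4 within their range, and those 4 were the arrays of 48 and 60 h. The mean was 11.77 ± 0.18 (SD, n = 10) in RAS-OFF and 11.56 ± 0.14 (SD, n = 5) in RAS-ON. This rise of 0.21 ± 0.06 (SE), or 1.16-fold, had an adjusted p of 0.00686. The call was lost when the 96 h arrays were left out (change 0.16, adjusted p = 0.0507) and when all RAS-OFF arrays were fitted as a single group (adjusted p = 0.0574).

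By time, the Ezh2 arrays read 11.59 and 11.64 (48 h), 11.58 and 11.47 (60 h), 11.83 and 11.80 (72 h), 11.87 and 11.92 (84 h), and 11.99 and 11.98 (96 h). From 72 h on, both arrays of each time lay above all RAS-ON arrays. In the same order of times, the Ezh2 changes were 0.06, -0.03, 0.26, 0.34 and 0.43, with adjusted p values of 0.652, 0.828, 0.0347, 0.00647 and 0.00126. The values at 48 and 60 h had no stable sign: 48 h gave -0.002 without RAS-ON replicate 4, and 60 h gave 0.02 without 60 h replicate 2. With a single array at a time the call was lost at 72 h (adjusted p = 0.189 without replicate 1 and 0.125 without replicate 2) and at 84 h (0.0728 without replicate 2). The slope over the 5 RAS-OFF times was 0.11 ± 0.02 (SE) per 12 h, with an adjusted p of 0.00524, where 13.7% of all genes had a slope that passed, 5% a rising and 8.75% a falling one. The slope kept its size, at 0.107, but not its call (adjusted p = 0.164) without replicate 1 of 48, 84 and 96 h together.

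**Figure D2:**
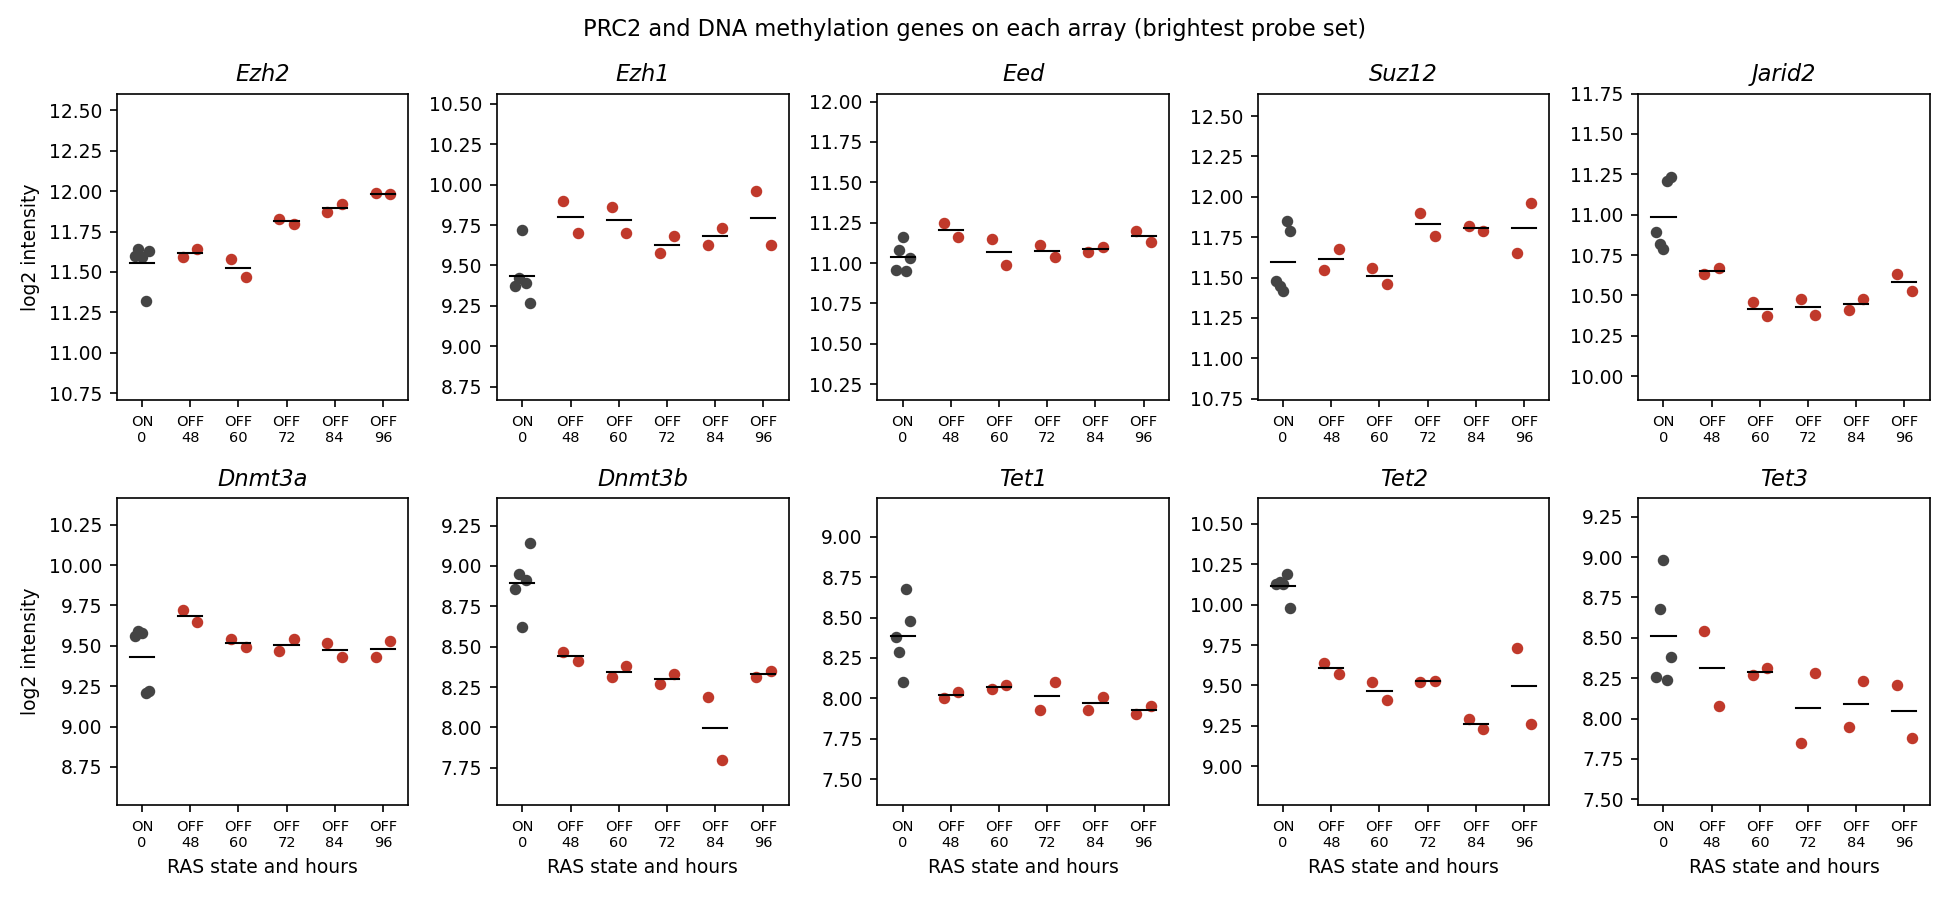
Log2 intensity (y axis, each panel with its own range of equal height) of the brightest probe set of each member on every array, by RAS state and hours (x axis), with RAS-ON arrays in grey, RAS-OFF arrays in red, and a bar at each group's mean. Ezh2 climbs after 60 h to 11.98 at 96 h, whereas Tet2, Dnmt3b, Jarid2 and Tet1 already lie under all RAS-ON arrays at 48 h.

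Ezh1 encodes the other catalytic subunit, which prevails in cells that divide little. Its brightest probe set had RAS-OFF values of 9.58 at the lowest, 9.70 at the median and 9.96 at the highest. The RAS-ON arrays stood at 9.37, 9.42, 9.72, 9.39 and 9.27. RAS-ON array 3 lay within the RAS-OFF range, while the other 4 lay below every RAS-OFF array. The rise was 0.30 ± 0.08 (SE; adjusted p = 0.00507), 1.23-fold, with means of 9.74 ± 0.13 (SD, n = 10) in RAS-OFF and 9.44 ± 0.17 (SD, n = 5) in RAS-ON. It passed in 30 of 30 alternative settings. Of its 4 probe sets, 1418290_a_at also rose, by 0.38 (adjusted p = 0.021), while 1429630_at and 1429629_at, both far below the median gene, differed by 0.06 and 0.08. The call of 1418290_a_at was lost without RAS-ON replicate 1 (adjusted p = 0.0639) or 2 (0.0684) and against RAS-ON arrays 4 and 5 alone, where the change was 0.11 (adjusted p = 0.569), beside 0.55 (adjusted p = 0.00328) against arrays 1 to 3. That of 1449023_a_at, the brightest, was lost among all probe sets against RAS-ON arrays 1 to 3 alone (change 0.23, adjusted p = 0.0702), but not against arrays 4 and 5 (0.41, adjusted p = 0.00542).

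The core subunit genes Eed and Suz12 did not pass. EED reads the methylated histone tail and stimulates the enzyme. Eed had a RAS-OFF mean of 11.12 ± 0.08 (SD, n = 10) and a RAS-ON mean of 11.04 ± 0.09 (SD, n = 5), a difference of 0.09 ± 0.05 (SE; adjusted p = 0.187), and it passed in 0 of 30 alternatives. Its dim second probe set, 1453830_at, differed by -0.02. SUZ12 holds the complex together. Suz12 was 11.71 ± 0.16 (SD, n = 10) in RAS-OFF and 11.60 ± 0.21 (SD, n = 5) in RAS-ON, a difference of 0.12 ± 0.08 (SE; adjusted p = 0.255). Its RAS-ON arrays read 11.48, 11.45 and 11.42 in the first set but 11.85 and 11.79 in the second. The change was 0.27 (adjusted p = 0.00599) against arrays 1 to 3 and -0.11 (adjusted p = 0.343) against arrays 4 and 5.

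Suz12 had 6 probe sets, of which 1420022_s_at alone was called, with a change of 0.64 (adjusted p = 0.044). That probe set was itself split by RAS-ON set, at 6.11, 6.22 and 6.18 on arrays 1 to 3 and 7.49 and 7.38 on arrays 4 and 5. Its change was 1.15 against arrays 1 to 3 and -0.12 against arrays 4 and 5. Leaving out RAS-ON replicate 1, 2 or 3 ended the call (adjusted p = 0.136, 0.122 and 0.106). So did leaving out replicate 2 of 48 h, either array of 60 h, replicate 1 of 72 h, either array of 84 h or replicate 2 of 96 h, at adjusted p values from 0.0549 to 0.0844. The other Suz12 sets differed by 0.12, 0.09, -0.02, -0.01 and 0.37. The last, 0.37 for 1449661_at (adjusted p = 0.0713), was split in the same way, at 0.625 (adjusted p = 0.00562) against RAS-ON arrays 1 to 3 and -0.002 (adjusted p = 0.995) against arrays 4 and 5. It also passed without RAS-ON replicate 4 (0.0213), 48 h replicate 1 (0.0333) or 96 h replicate 1 (0.0417).

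Jarid2 moved opposite to the catalytic subunit genes. Its RAS-OFF values were 10.37 at the lowest, 10.48 at the median and 10.67 at the highest, while RAS-ON arrays read 10.89, 10.82, 10.79, 11.21 and 11.23. The groups did not overlap. Jarid2 fell by 0.48 ± 0.08 (SE; adjusted p = 9.09e-05), to 0.715 times the RAS-ON level, with means of 10.50 ± 0.11 (SD, n = 10) in RAS-OFF and 10.99 ± 0.21 (SD, n = 5) in RAS-ON. All 3 Jarid2 probe sets fell, the others by 0.62 each (adjusted p = 4.28e-06 for 1422697_s_at and 5.93e-05 for 1450710_at). The call held in 30 of 30 alternatives, and the change was -0.33 against RAS-ON arrays 1 to 3 and -0.72 against arrays 4 and 5.

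Of the de novo methyltransferase genes, Dnmt3b was lower after RAS was turned off. Its RAS-OFF values had a lowest of 7.80, a median of 8.32 and a highest of 8.47. The RAS-ON values were 8.86, 8.95, 8.62, 8.91 and 9.14, all above every RAS-OFF array. The fall of 0.61 ± 0.08 (SE; adjusted p = 1.34e-05) left Dnmt3b at 0.654 times its RAS-ON level. Means were 8.28 ± 0.19 (SD, n = 10) in RAS-OFF and 8.90 ± 0.19 (SD, n = 5) in RAS-ON. The second probe set, 1418351_a_at, fell by 0.34 (adjusted p = 0.00148), with 7 of 10 RAS-OFF arrays below all RAS-ON arrays. The fall passed in 30 of 30 alternatives on the brightest set and in 20 of 20 on the second.

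Dnmt3a gave no single answer, because its probe sets disagreed. On the set brightest over all arrays, 1423063_at, the RAS-OFF mean was 9.53 ± 0.09 (SD, n = 10) and the RAS-ON mean 9.44 ± 0.20 (SD, n = 5), a difference of 0.10 ± 0.07 (SE; adjusted p = 0.28). That difference was -0.05 (adjusted p = 0.503) against RAS-ON arrays 1 to 3 and 0.32 (adjusted p = 0.00135) against arrays 4 and 5. All 5 probe sets are annotated to the same transcript record, yet 1 rose, 3 fell and 1 did not pass. Where along the transcript each of them lies was not analysed here. Of the 30 probe sets of the 10 members, 5 rose, 12 fell and 13 did not pass, where 19.1% of all probe sets rose and 22.4% fell and 16% had no overlap between the groups. Without RAS-ON replicate 1 or 2 the rising ones numbered 3.

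The rising Dnmt3a set, 1460324_at, read 8.85 to 9.20 on RAS-OFF arrays and 8.17, 8.50, 8.65, 7.51 and 7.63 on RAS-ON arrays. Its groups did not overlap. It rose by 0.91 ± 0.16 (SE; adjusted p = 0.000521), by 0.56 against RAS-ON arrays 1 to 3 and by 1.43 against arrays 4 and 5. The set 1423064_at moved the other way without overlap, with 8.43 to 8.79 on RAS-OFF arrays against 9.39, 9.29, 9.15, 9.12 and 8.93 on RAS-ON arrays. It fell by 0.61 ± 0.07 (SE; adjusted p = 1.38e-05). Another set, 1423066_at, fell by 0.74 ± 0.11 (SE; adjusted p = 0.000136), and 1423065_at fell by 0.22 ± 0.06 (SE; adjusted p = 0.00956), which did not pass with only RAS-ON arrays 4 and 5 (-0.12, adjusted p = 0.265) but did with arrays 1 to 3 (-0.29, adjusted p = 0.00548). Within each array, 1460324_at minus 1423064_at lay between 0.23 and 0.63 in RAS-OFF and between -1.61 and -0.49 in RAS-ON. This difference shows unequal change of the probe sets and does not say which of them reads the total transcript.

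**Figure D3:**
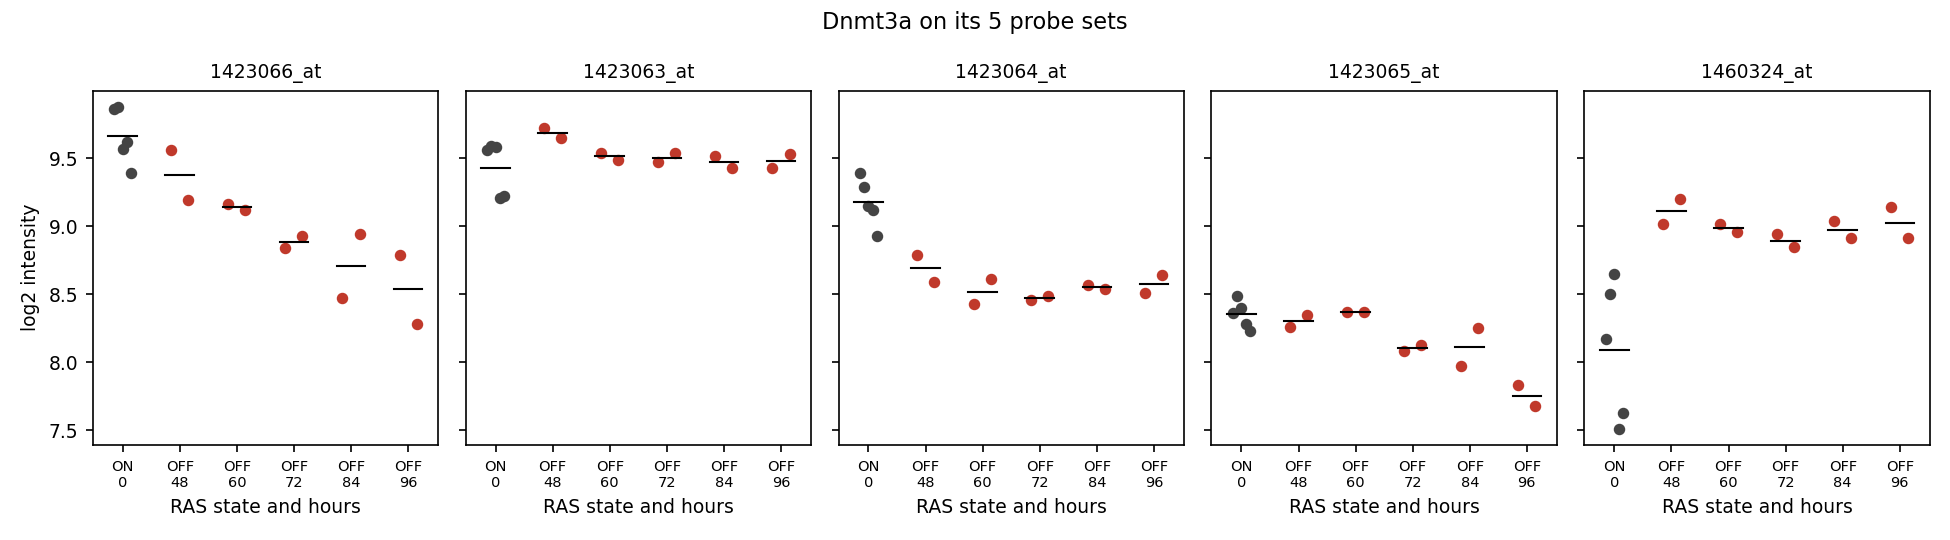
Log2 intensity (y axis, shared) of the 5 Dnmt3a probe sets (panels) on every array, by RAS state and hours (x axis), with RAS-ON arrays in grey, RAS-OFF arrays in red and a bar at each group's mean. All RAS-OFF arrays lie above RAS-ON in 1460324_at and below it in 1423064_at, while 1423063_at overlaps.

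All 3 TET genes were lower in RAS-OFF leukemias, Tet3 with the least certainty. Tet2, the TET gene most often mutated in leukemia, had the largest fall among the members' brightest probe sets. Its RAS-OFF values were 9.23 at the lowest, 9.52 at the median and 9.73 at the highest, against 10.13, 10.14, 10.13, 10.19 and 9.98 on RAS-ON arrays, with no overlap. The fall was 0.64 ± 0.07 (SE; adjusted p = 1.72e-06), to 0.64 times the RAS-ON level, with means of 9.47 ± 0.17 (SD, n = 10) in RAS-OFF and 10.11 ± 0.08 (SD, n = 5) in RAS-ON. The change was close to the same against both RAS-ON sets, at -0.67 against arrays 1 to 3 and -0.61 against arrays 4 and 5, and passed in 30 of 30 alternatives. The second Tet2 probe set, 1438781_at, differed by -0.34 and did not pass (adjusted p = 0.0771), though it did without RAS-ON replicate 5 (0.0413) or 96 h replicate 1 (0.0499). On that set RAS-ON array 3 read 10.20 and the other RAS-ON arrays 9.16 to 9.54, and without array 3 the change was -0.17.

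Tet1 lay near the median gene, above it on 7 of the 15 arrays. RAS-OFF values were 7.90 at the lowest, 8.01 at the median and 8.10 at the highest, and RAS-ON values were 8.38, 8.29, 8.10, 8.68 and 8.48. The groups did not overlap, but the highest RAS-OFF value and the lowest RAS-ON value both round to 8.10. Tet1 fell by 0.39 ± 0.08 (SE; adjusted p = 0.000698), a call kept in 30 of 30 alternatives, with a change of -0.26 against RAS-ON arrays 1 to 3, -0.58 against arrays 4 and 5 and -0.21 in the average of its probe sets. Its means were 8.0 ± 0.07 (SD, n = 10) in RAS-OFF and 8.39 ± 0.22 (SD, n = 5) in RAS-ON. A dimmer Tet1 set, 1455425_at, fell by 0.44 (adjusted p = 0.00442), and the remaining sets, 1419896_at and 1419897_at, differed by 0.09 and -0.11 without passing.

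Tet3 was the least certain of the falls. Its RAS-OFF values were 7.85 at the lowest, 8.22 at the median and 8.54 at the highest. They overlapped with the RAS-ON values of 8.26, 8.68, 8.98, 8.24 and 8.38, with 6 of 10 RAS-OFF arrays below them all. Tet3 fell by 0.35 ± 0.13 (SE; adjusted p = 0.0342), with means of 8.16 ± 0.22 (SD, n = 10) in RAS-OFF and 8.51 ± 0.32 (SD, n = 5) in RAS-ON. It passed in 18 of 30 alternatives. Single arrays without which it was lost were RAS-ON replicates 2 (adjusted p = 0.089) and 3 (0.106, change -0.23) and, in RAS-OFF, replicate 2 of 48 h (0.067) and of 96 h (0.0641) and replicate 1 of 60 h (0.0554), of 72 h (0.0687) and of 84 h (0.062). The change was -0.48 (adjusted p = 0.0132) with RAS-ON arrays 1 to 3 and -0.15 (adjusted p = 0.407) with arrays 4 and 5.

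The falls of Tet2, Dnmt3b and Jarid2 were present at 48 h and had no slope over RAS-OFF that passed. In the order 48, 60, 72, 84 and 96 h, Tet2 differed from RAS-ON by -0.51, -0.65, -0.59, -0.85 and -0.62, and passed at each time (adjusted p = 0.00195, 0.000299, 0.000451, 1.35e-05 and 0.000239). At 96 h its arrays read 9.73 in replicate 1, the array with the large Gapdh difference, and 9.26 in replicate 2. The Tet2 slope over RAS-OFF was -0.04 per 12 h (adjusted p = 0.352). It was -0.09 (adjusted p = 0.0285) without 96 h replicate 1 and 0.004 without 96 h replicate 2. Dnmt3b changed by -0.45, -0.55, -0.59, -0.90 and -0.57 over the same times, all called. Its call was lost at 48 h without either 48 h array (adjusted p = 0.0586 and 0.101) and at 60 h without replicate 1 (0.0543). The 84 h arrays of Dnmt3b read 8.19 and 7.80, and the 84 h change lay between -1.09 and -0.71 over the single arrays left out.

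Jarid2 changed by -0.34, -0.58, -0.56, -0.54 and -0.41 in the order 48, 60, 72, 84 and 96 h, and the 60, 72 and 84 h calls stood without any single array. The 48 h call (adjusted p = 0.0432) was lost without any 1 of the 10 RAS-OFF arrays and without RAS-ON replicate 4 or 5 (adjusted p between 0.0506 and 0.205), and with only RAS-ON arrays 1 to 3 (-0.18, adjusted p = 0.0935). The 96 h call (adjusted p = 0.0118) was lost without 96 h replicate 2 (0.102). Over all members in that order, 5, 4, 5, 5 and 6 were called, where all genes were called at 27.4%, 25.8%, 31.8%, 36.8% and 37.6%. Members that rose numbered 1, 1, 1, 1 and 2, beside 13.7%, 11.5%, 13.4%, 15% and 16.7% of all genes. The riser was Ezh1 at 48 and 60 h, Ezh2 at 72 and 84 h, and both at 96 h. The 96 h arrays of Ezh1 read 9.96 in replicate 1, the array with the large Gapdh difference, and 9.63 in replicate 2. RAS-ON array 3 lay between them, at 9.72. On 96 h replicate 1 the other rising Ezh1 set, 1418290_a_at, had its lowest RAS-OFF value, 7.98. Ezh1 did not pass at 72 h (0.19, adjusted p = 0.24) or 84 h (0.24, adjusted p = 0.126). Members that fell numbered 4, 3, 4, 4 and 4, beside 13.7%, 14.2%, 18.3%, 21.8% and 20.9% of all genes. Tet1 was called at each time but 60 h (adjusted p = 0.0608), and Tet3 passed at none of the 5 times. These times share the same RAS-ON arrays and have 2 arrays each. At 48 h the count was 1 without either 48 h array, 2 without RAS-ON replicate 5 and 3 without RAS-ON replicate 1 or 4. It was 2 at 60 h without replicate 1 of that time, 3 at 72 h without either array, and 3 at 84 h without replicate 2.

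Whether related members changed unequally was tested on 5 within-array differences, with a two-sided exact permutation test over the 10 RAS-OFF and 5 RAS-ON arrays. There were 3003 splits, so the smallest possible p was 0.000666, and p-values were adjusted over the 5 pairs. Dnmt3a minus Dnmt3b, on the brightest sets, was higher in RAS-OFF by 0.71 (exact p = 0.000666, the smallest possible, adjusted p = 0.00333), with 10 of 10 RAS-OFF arrays above every RAS-ON array. With the mean of each gene's probe sets that value was 0.36 (exact adjusted p = 0.0833). It was 0.48 (exact adjusted p = 0.035) with RAS-ON arrays 1 to 3 and 1.06 (exact adjusted p = 0.0758) with arrays 4 and 5. With arrays 4 and 5 alone the splits are so few that no pair can pass unless nearly all pairs reach the smallest possible p. The Dnmt3a minus Dnmt3b result depends on the Dnmt3a probe set used. The brightest Dnmt3a set changed by 0.10, beside -0.61 for the brightest Dnmt3b set. The other Dnmt3a sets changed by -0.74, -0.61, -0.22 and 0.91, so some fell as much as Dnmt3b. The pair was not tested with each of these sets. Ezh1 minus Ezh2 changed by 0.09 (exact adjusted p = 0.605) and did not pass. For the TET genes, Tet1 minus Tet2 changed by 0.26 (exact adjusted p = 0.0977), Tet2 minus Tet3 by -0.30 (exact adjusted p = 0.0977) and Tet1 minus Tet3 by -0.04 (exact adjusted p = 0.855). Tet1 minus Tet2 passed without 96 h replicate 1 (0.30, exact adjusted p = 0.035) and with RAS-ON arrays 1 to 3 (0.41, exact adjusted p = 0.035), where arrays 4 and 5 gave 0.034 (exact adjusted p = 0.758), and Tet2 minus Tet3 without RAS-ON replicate 3 (-0.41, exact adjusted p = 0.035). The sign of Tet1 minus Tet3 turned without any 1 of RAS-ON replicates 1, 4 and 5 or 48 h replicate 1 (0.022, 0.10, 0.015 and 0.002).

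Other genes of DNA methylation moved both ways. Of 19 measured, 5 rose, 7 fell and 7 did not pass, with a median of -0.01 beside -0.04 for all genes. Among all genes, 20.1% rose and 28.7% fell. Dnmt3l, the cofactor without catalytic activity that stimulates DNMT3A and DNMT3B, fell by 0.92 ± 0.09 (SE; adjusted p = 9.49e-07), with means of 6.65 ± 0.13 (SD, n = 10) in RAS-OFF and 7.57 ± 0.27 (SD, n = 5) in RAS-ON. Its level was low, among the dimmest 40% of genes. Idh2, whose mitochondrial enzyme makes the alpha-ketoglutarate that TET enzymes use, fell by 0.81 ± 0.09 (SE; adjusted p = 1.89e-06), or by 0.42 in the average of its probe sets. Ogt, whose glycosyltransferase binds TET proteins, rose by 1.03 ± 0.15 (SE; adjusted p = 5.8e-05), and Zbtb4, which binds methylated DNA, rose by 0.63 ± 0.08 (SE; adjusted p = 1.11e-05). In each of these 4 genes the RAS-OFF and RAS-ON arrays did not overlap, as in 21.3% of all genes. They were named for the largest called changes of their list, which favours such a pattern. Dnmt1, which copies methylation after replication, differed by -0.06 (adjusted p = 0.401). Uhrf1, which guides DNMT1 to new DNA, rose by 0.19 (adjusted p = 0.0125), which did not pass with only RAS-ON arrays 1 to 3 (0.10, adjusted p = 0.149) but did with arrays 4 and 5 (0.32, adjusted p = 0.00122), and its sign turned with the mean of its probe sets (-0.04). Dnmt1 and Uhrf1 were named for their role, after their values were seen.

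**Figure D4:**
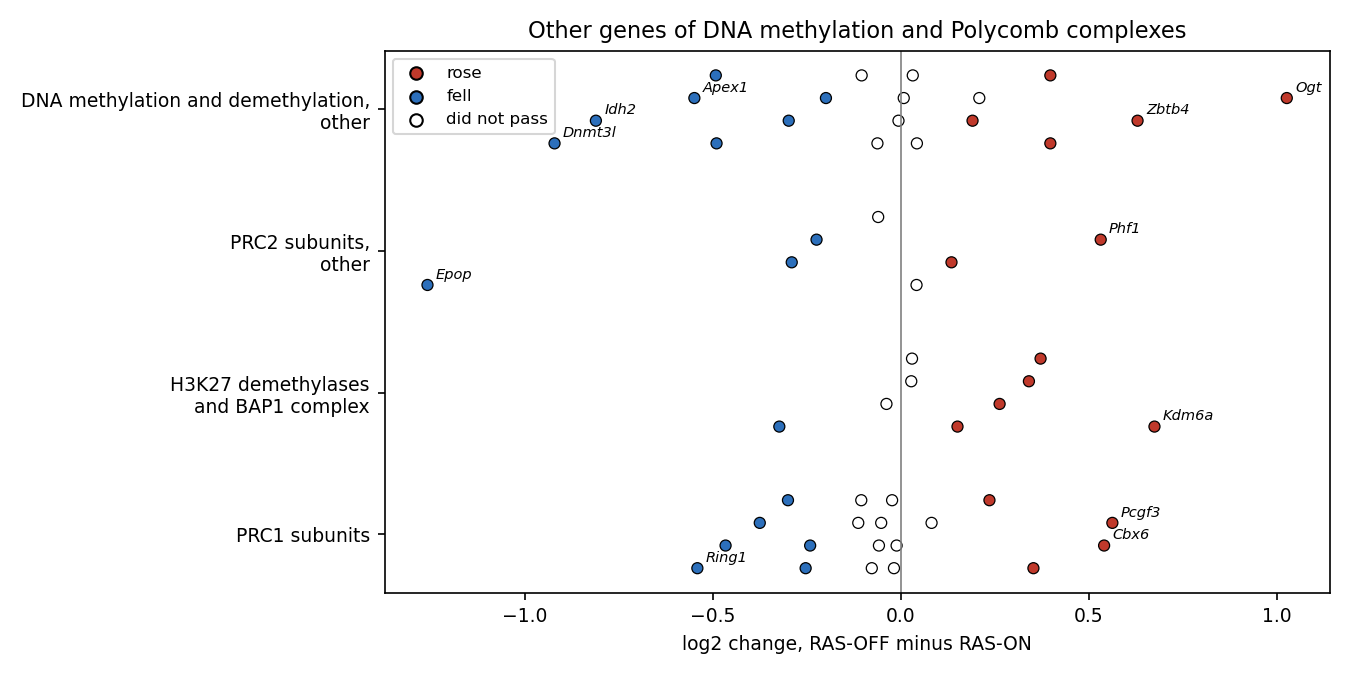
Log2 change between RAS-OFF and RAS-ON (x axis) of the measured genes of 4 chromatin lists (rows), a point per gene at its brightest probe set, red where it rose, blue where it fell and open where it did not pass. In each list points lie on both sides of 0, and the demethylase and BAP1 list has 5 red points and 1 blue.

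Among the 7 other PRC2 subunit genes, 2 rose, 3 fell and 2 did not pass (median -0.06), where 20.1% of all genes rose and 28.7% fell. Phf1, a Polycomb-like subunit gene, rose by 0.53 ± 0.13 (SE; adjusted p = 0.00421), by 0.28 against RAS-ON arrays 1 to 3 and by 0.92 against arrays 4 and 5. Its relative Phf19 fell by 0.22 ± 0.06 (SE; adjusted p = 0.00412), or by 0.54 in the average of its probe sets. Aebp2, whose product joins the same form of PRC2 as JARID2, fell by 0.29 ± 0.07 (SE; adjusted p = 0.0038), with a change of -0.15 against RAS-ON arrays 1 to 3 and -0.50 against arrays 4 and 5. It did not pass when its probe sets were averaged (-0.10, adjusted p = 0.0892). Epop, for a subunit of the Polycomb-like form, fell by 1.26 ± 0.16 (SE; adjusted p = 9.57e-06), at a low level of 5.01 ± 0.17 (SD, n = 10) in RAS-OFF and 6.27 ± 0.50 (SD, n = 5) in RAS-ON.

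Genes that act against Polycomb silencing or in its partner complex were counted too, where 20.1% of all genes rose and 28.7% fell. Of 9 genes for histone H3 lysine 27 demethylases and the BAP1 complex, 5 rose, 1 fell and 3 did not pass, with a median of 0.15. Kdm6a, for the demethylase also called UTX, rose by 0.68 ± 0.06 (SE; adjusted p = 3.25e-07), with means of 11.34 ± 0.18 (SD, n = 10) in RAS-OFF and 10.66 ± 0.07 (SD, n = 5) in RAS-ON. All its RAS-OFF arrays lay above all RAS-ON arrays, as in 9.36% of all genes. Asxl2 and Asxl1, for partners of the BAP1 deubiquitinase, rose by 0.37 ± 0.08 (SE; adjusted p = 0.00099) and 0.34 ± 0.07 (SE; adjusted p = 0.000774). Averaged over their probe sets, Asxl2 rose by 0.24 and Asxl1 differed by 0.008 (adjusted p = 0.91). Foxk1 fell by 0.32 ± 0.06 (SE; adjusted p = 0.000261). Of 19 genes of PRC1, the complex that ubiquitinates histone H2A, 4 rose, 6 fell and 9 did not pass (median -0.06). Pcgf3 and Cbx6 rose by 0.56 ± 0.10 (SE; adjusted p = 0.000261) and 0.54 ± 0.07 (SE; adjusted p = 1.69e-05), and Pcgf3 rose by 0.21 in the average of its probe sets. Ring1, for a catalytic subunit, fell by 0.54 ± 0.11 (SE; adjusted p = 0.000765) and L3mbtl2 by 0.47 ± 0.08 (SE; adjusted p = 0.000171). With only RAS-ON arrays 4 and 5, Ring1 did not pass (change -0.225, adjusted p = 0.0963), whereas arrays 1 to 3 gave -0.75 (adjusted p = 6.66e-06).

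Ezh2 is known as an E2F target, and 18 replication and proliferation genes were set beside it. Of these, 15 rose, 2 fell and 1 did not pass, with a median of 0.34, where 20.1% of all genes rose and 28.7% fell. The 2 that fell were E2f1, with a change of -0.26 (adjusted p = 0.0197), and Mcm3, with -0.16 (adjusted p = 0.0241). In the order 48, 60, 72, 84 and 96 h the list's median change was 0.22, 0.11, 0.37, 0.50 and 0.54, beside 0.06, -0.03, 0.26, 0.34 and 0.43 for Ezh2. Both were lowest at 60 h and highest at 96 h. These values share their arrays, and the part of proliferation in the Ezh2 values was not tested. Ccne2, for cyclin E2, rose by 1.03 ± 0.08 (SE; adjusted p = 5.94e-08), E2f2 by 0.82 ± 0.08 (SE; adjusted p = 1.03e-06) and Cdc6, for an origin licensing factor, by 0.77 ± 0.07 (SE; adjusted p = 4.58e-07). The erythroid list stood at 1.38, 1.37, 1.62, 1.63 and 1.61 over the same times, and the leukemia and myeloid progenitor list at -0.40, -0.52, -0.71, -0.91 and -1.21.

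**Figure D5:**
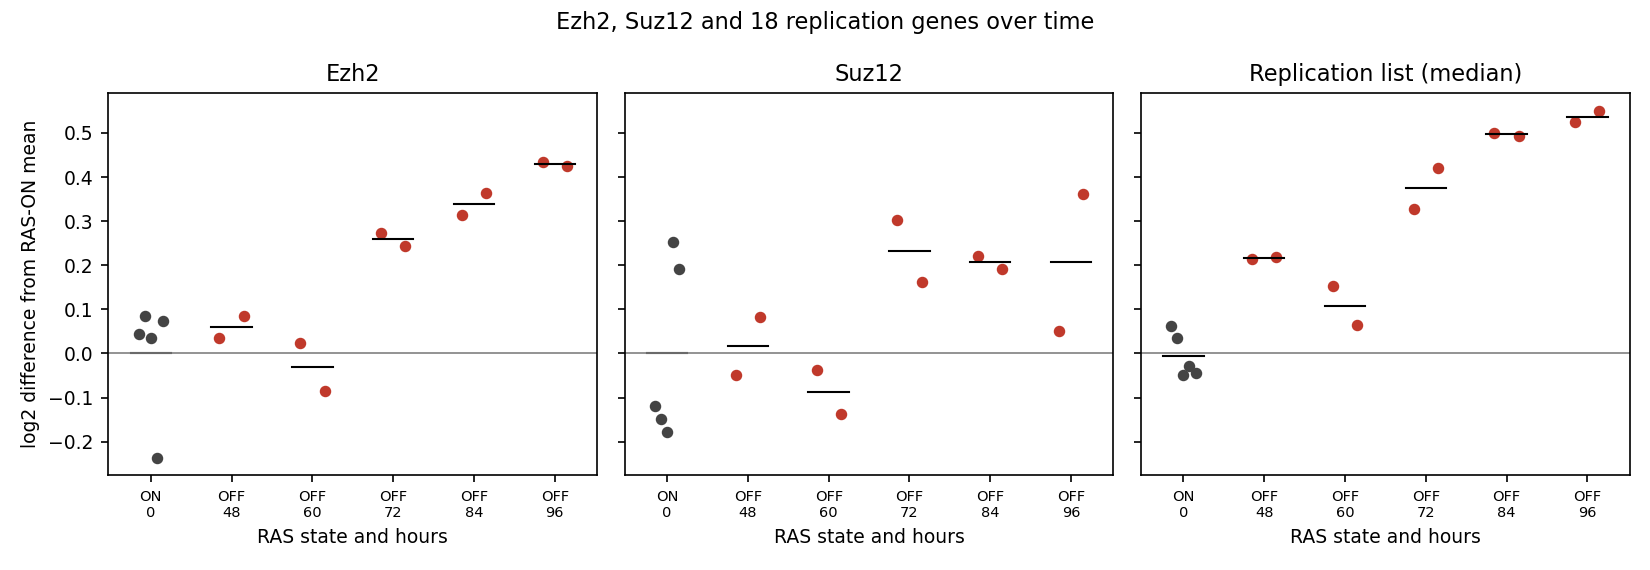
Log2 difference from the RAS-ON mean (y axis, shared) of Ezh2, of Suz12 and of the median over 18 replication genes on every array, by RAS state and hours (x axis), with RAS-ON arrays in grey, RAS-OFF arrays in red and a bar at each group's mean. Among RAS-OFF times Ezh2 and the replication median lie lowest at 60 h and highest at 96 h, at 0.43 and 0.54. Suz12 is also lowest at 60 h, and both Ezh2 and Suz12 overlap between RAS-OFF and RAS-ON.

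Markers of other spleen cells moved in the same arrays as the members. Their counts stand beside 20.1% of all genes called up and 28.7% called down. Among erythroid genes 9 of 10 rose (median 1.52), with Epb42 and Car1 higher by 2.43 and 2.39. The exception, Hba-a1, was read by a dim probe set at 6.09 in RAS-OFF and 6.05 in RAS-ON. Among red pulp macrophage genes 9 of 10 rose and 1 fell (median 0.66), all 8 megakaryocyte genes rose (median 0.48), and of 8 stroma genes 6 rose and 1 fell (median 0.41). Of 9 mature neutrophil genes 6 rose (median 0.55). Of 12 leukemia and myeloid progenitor genes 2 rose and 6 fell (median -0.68), with the largest changes, -2.66 and -2.07, in the granule protease genes Ctsg and Elane. The 2 that rose were Csf3r (0.74, adjusted p = 4.59e-07) and Ptprc (0.17, adjusted p = 0.0377). The 4 that did not pass were Hoxa9 (-0.24, adjusted p = 0.0554), Meis1 (0.08, 0.657), Itgam (-0.25, 0.432) and Csf1r (-0.175, 0.0687). The B-cell list, with a median of -0.36, had 1 gene called higher and 4 called lower of 5, and the T-cell list, with a median of 0.07, had 2 called higher and 1 called lower of 6.

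The genes whose profile over the 15 arrays came closest to that of Tet2, by the root mean square difference of log2 values centred on the RAS-ON mean, were Mical1 (0.104), Car9 (0.109), Poglut1 (0.113) and Map1s (0.113). Their changes were -0.63, -0.60, -0.65 and -0.64, beside -0.64 for Tet2. For Ezh1 they were Ubr4 (0.082), Cdk11b (0.083), S100pbp (0.087) and Strc (0.089), with changes of 0.295, 0.31, 0.30 and 0.30 beside 0.30 for Ezh1. Mical1 encodes an oxidase of actin filaments, Car9 a carbonic anhydrase and Ubr4 a ubiquitin ligase. The genes near Tet2 and Ezh1 were picked for like profiles, so their near-equal changes follow from that choice. These likenesses describe arrays that share samples and normalization.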

How the data were processed

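Total RNA of spleen leukemia cells was hybridised to Affymetrix arrays. The authors deposited 1 intensity per probe set and array, made with RMA per the submitters' processing notes. No source used here gives the version of RMA or its settings. RMA forces like distributions on all arrays, so a shift of most genes would not show. Array medians were 149.99 to 156.53 on a linear scale, so log2 was taken. Arrays have no read depth, and their number sets how precise a value is.

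Of 45101 probe sets, 34945 had 1 gene symbol in the platform annotation, 932 several, 9160 none, and 64 were controls. For each of 18193 genes the probe set of highest mean was used. No filter on dim genes was used. Groups came from sample titles. limma 3.58.1 (R 4.3.3) fitted 1 mean per group over all 15 arrays. Contrasts were the average over 5 RAS-OFF groups minus RAS-ON, each time minus RAS-ON, and the slope over RAS-OFF times per 12 h. Tests were two-sided with Benjamini-Hochberg adjustment over all genes (or all 45037 probe sets), called under 0.05. In simulated data of 18193 genes the RAS-OFF contrast recovered 88 of 100 genes set to change by 0.5 on the log2 scale and 100 of 100 set to -1, with 13 others called. The pair test used scipy 1.17.1.

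The members, lists, tests and alternatives were chosen with earlier results of these data known. Named were all members, up to 4 called genes of largest change from each chromatin list, up to 3 from the replication list, up to 2 from cell type lists, and the 4 nearest profiles of the called members with the largest rise and fall. Provisional symbols were passed over there. The 2 genes of the replication list that fell were named as well. So were the genes of the leukemia and myeloid progenitor list that rose or did not pass. Alternatives were a filter that drops the dimmest 40% of genes, averaged probe sets, centring arrays on their medians, trend and robust eBayes, array weights, a block for the replicate number, each array or time left out, 2 groups only, either RAS-ON set alone, and leaving out replicate 1 of 48, 84 and 96 h. Where 1 array of a time was left, it was assumed to vary like the others. Some genes of the lists are not reported here.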

Additional observations from a re-analysis of the deposited data

Results flagged for a closer look

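Among the 30 member probe sets, 3 had a RAS-ON array far from the other RAS-ON arrays, by a rule that chance meets in about 1 of 20 groups. Ezh2 read 11.32 on RAS-ON array 4, against 11.59 for the next lowest. Dnmt3b probe set 1418351_a_at read 8.04 on RAS-ON array 3, against 8.33 for the next lowest. Tet2 probe set 1455300_at read 9.98 on RAS-ON array 5, against 10.13 for the next lowest. These are 3 different arrays. The calls of these probe sets between RAS-OFF and RAS-ON were kept without any single array, with changes of 0.15 to 0.23 for Ezh2, -0.40 to -0.31 for that set of Dnmt3b and -0.69 to -0.60 for Tet2.

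The change of Ezh2 differed between RAS-OFF times, with a slope of 0.111 log2 units per 12 h (limma adjusted p = 0.00524). No other member had a slope that passed.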

How the results depend on the processing

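Of the 10 members, Ezh1, Dnmt3b, Tet1, Jarid2 and Tet2 kept direction and call in 30 of 30 alternatives, and Eed passed in 0. The members that rose numbered 1 with 2 groups only and without the 96 h arrays. Members called, with each array left out in turn, numbered 1 to 5 (48 h), 2 to 5 (60 h), 3 to 5 (72 h), 3 to 6 (84 h) and 4 to 7 (96 h). Without replicate 1 of 48, 84 and 96 h together the counts were 1 (48 h), 3 (72 h), 2 (84 h) and 3 (96 h), and 0 members had a rising slope. Against RAS-ON arrays 1 to 3 the 48 h count was 2, and against arrays 4 and 5 the 60 h count was 7. Without 96 h replicate 1, 1 member had a falling slope (0 to 1 over single arrays). Member probe sets that rose numbered 3 to 6 over single arrays, and those that fell 11 to 13. Over all genes, rising slopes numbered 1720 with arrays centred and 86 without the 3 arrays together (292 to 995 over single arrays), and falling slopes 362 without the 3 arrays (817 to 1762 over single arrays), beside 909 and 1592.

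For the pairs, the mean of probe sets gave -0.007 for Ezh1 minus Ezh2, 0.36 for Dnmt3a minus Dnmt3b and 0.13 for Tet1 minus Tet3. RAS-ON arrays 1 to 3 gave 0.41 for Tet1 minus Tet2 (a call gained, exact adjusted p = 0.035) and 0.22 for Tet1 minus Tet3. Arrays 4 and 5 gave 1.06 for Dnmt3a minus Dnmt3b (exact adjusted p = 0.0758). The call was lost there, but with so few splits no pair can pass unless nearly all pairs reach the smallest possible p. Without the 3 arrays together Tet1 minus Tet3 was 0.015. Single arrays gave 0.183 to 0.315 for Tet1 minus Tet2, -0.229 to 0.10 for Tet1 minus Tet3 and -0.412 to -0.213 for Tet2 minus Tet3.

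Signs turned for the values below, most of them near 0 but among them Suz12 set 1420022_s_at (0.64) and Uhrf1 (0.19), both called, and Suz12 set 1449661_at (0.37). The cause was not tested. With the mean of probe sets Dnmt3a was -0.113, Dnmt1 0.027 and Uhrf1 -0.041. Against RAS-ON arrays 1 to 3, Dnmt3a was -0.047 (its set 1423063_at too), Ezh1 set 1429629_at -0.007, Suz12 set 1452364_at 0.154 and Eed set 1453830_at 0.006. Against arrays 4 and 5, Suz12 was -0.107 (its set 1420021_s_at too), and its sets 1420020_at, 1420022_s_at, 1427253_s_at and 1449661_at were 0.136, -0.117, -0.063 and -0.002. There Tet1 set 1419896_at was -0.11, Dnmt1 0.066 and Ezh2 at 60 h 0.05. Centring gave 0.008 for Suz12 set 1420020_at, and 0.006 for 1452364_at and for Eed set 1453830_at. Without the 3 arrays together 1452364_at was 0.061 and 1453830_at 0.008. Over single arrays Suz12 sets 1420020_at and 1452364_at ran from -0.055 to 0.036 and from -0.118 to 0.05, Eed set 1453830_at from -0.046 to 0.002, Ezh1 set 1429630_at from -0.033 to 0.134, the Tet2 slope from -0.09 to 0.004, and Ezh2 from -0.002 to 0.084 at 48 h and from -0.092 to 0.018 at 60 h.

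The replicate numbers shared by the groups showed no clear pairing of the samples, though a weak one cannot be told from these values. Deviations from group means correlated above 0.1 in 3 of 20 distinct same-numbered pairs of arrays of different groups (range -0.237 to 0.217). With 2 arrays a time, replicates 1 and 2 mirror each other, so the 20 pairs within RAS-OFF hold 10 distinct values. With the number as a replicate block, Ezh2 was 0.143 (adjusted p = 0.0994), Tet3 -0.308 (0.124), Suz12 0.253 (0.0346), Dnmt3a -0.045 (its set 1423063_at too), Ezh2 at 48 h -0.009, Suz12 set 1452364_at 0.038 and Eed set 1453830_at 0.022. Calls were also lost for Ezh2 at 72 h (0.191, adjusted p = 0.104), Jarid2 at 48 h (-0.206, 0.101), Phf19 (-0.193, 0.05) and Uhrf1 (0.062, 0.481), and gained for Dnmt1 (-0.189, 0.0403) and Suz12 set 1449661_at (0.646, 0.0201).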
